A study of Mus musculus with 6 samples.

Results

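Protein kinase A is the main kinase that cells switch on with cAMP. The 10 genes described here encode its catalytic subunits (Prkaca, Prkacb), its regulatory subunits (Prkar1a, Prkar1b, Prkar2a, Prkar2b), its small inhibitor proteins (Pkia, Pkib, Pkig) and the anchoring protein Akap12. They were chosen by gene symbol from the 19505 named genes of the array, and all 10 were measured, each by 1 probe set. RNA came from 393P, a mouse lung adenocarcinoma cell line (written 9393P in some labels), stably transfected with either AC9 or the empty VECTOR, with 3 arrays in each group. The labels do not expand AC9; among the synonyms in RefSeq it belongs to Adcy9, which encodes a cAMP-forming adenylyl cyclase. Both groups went through jetPRIME transfection and drug selection, with puromycin or with G418. The sources used here do not give the drug for each group, the promoter of the transgene, or whether a group was 1 clone or a pool, and an effect of these cannot be told apart from that of AC9. The labels do not say whether the arrays of a group stand for separate cultures, so the spread behind each p-value may be technical only.

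In the resting holoenzyme a dimer of regulatory subunits holds the catalytic subunits inactive. Binding of cAMP to the regulatory subunits frees the catalytic subunits, which phosphorylate targets in the cytoplasm and enter the nucleus, where CREB is among their substrates. RI subunits give a holoenzyme that is found largely in the cytosol, and RII subunits give one held at membranes and the cytoskeleton by A-kinase anchoring proteins. The inhibitor proteins bind free catalytic subunits, block their active site and carry them out of the nucleus. Transcript levels do not show how active the kinase was.

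Values are log2 intensities, and a change is the AC9 mean minus the VECTOR mean. As a bound for dim signals, the 90th percentile of the 5222 negative control probe sets was 5.997 to 6.112 per array, with a mean of 6.06. Adcy9 read 6.12, 6.09 and 6.15 in VECTOR, close to that bound, and 6.78, 6.60 and 6.82 in AC9 (change 0.61, limma adjusted p 0.00264). Of 10 markers of epithelium measured, 7 lay above the bound in both groups, whereas all 7 leukocyte and all 5 endothelial markers and 4 of 5 fibroblast markers lay under it in both. The epithelial markers moved both ways, with Ocln (0.70), Cldn4 (0.50) and Epcam (0.44) higher in AC9 and Krt19 (-0.47) lower, at limma adjusted p of 0.00400 to 0.0293, and their mean was 8.887 to 9.0003 in VECTOR and 9.0025 to 9.058 in AC9. The array's 23 background probe sets also differed: 19 were lower in AC9 without overlap, with shifts of -0.50 to 0.01 on the log2 scale. By class of G and C content, the shift was -0.04 in class 15, -0.10 in class 16 and -0.50 in class 25.

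The catalytic subunit gene Prkaca was lower in the AC9 cells, while its paralog Prkacb was not called. Prkaca read 10.01, 10.03 and 9.96 in VECTOR and 9.43, 9.31 and 9.58 in AC9. Every AC9 array lay below every VECTOR array, with a mean of 9.44 ± 0.14 against 10.00 ± 0.03 (SD, n = 3). Its change was -0.56 (SE 0.10), a 1.47-fold lower level, with a limma adjusted p of 0.00498. In bulk RNA, fewer cells that express a gene and less RNA per cell cannot be told apart. Prkacb read 10.19, 10.29 and 10.56 in VECTOR and 10.50, 10.48 and 10.38 in AC9. The groups overlapped, and VECTOR replicate 3 gave the highest value of all. Its change was 0.11, with a 95% interval of -0.15 to 0.36 and an adjusted p of 0.590 in the limma fit.

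The sequences before the annotated starts of both catalytic genes are shown because 1 paralog was called and the other was not. They are the 250 bases before the most upstream start that RefSeq lists for each gene on GRCm38.p6, chr8:83972728-83972977 (+ strand) and chr3:146812947-146813196 (- strand). Capitals mark TGACG, the core of the cAMP response element, and GGGCGG, the GC box, each on either strand (CGTCA and CCGCCC on the other).
Prkaca: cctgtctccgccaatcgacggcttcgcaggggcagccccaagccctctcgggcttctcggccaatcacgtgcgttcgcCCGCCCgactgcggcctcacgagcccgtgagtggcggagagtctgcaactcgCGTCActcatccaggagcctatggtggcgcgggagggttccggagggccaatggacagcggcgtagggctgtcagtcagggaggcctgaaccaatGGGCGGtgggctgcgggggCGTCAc
Prkacb: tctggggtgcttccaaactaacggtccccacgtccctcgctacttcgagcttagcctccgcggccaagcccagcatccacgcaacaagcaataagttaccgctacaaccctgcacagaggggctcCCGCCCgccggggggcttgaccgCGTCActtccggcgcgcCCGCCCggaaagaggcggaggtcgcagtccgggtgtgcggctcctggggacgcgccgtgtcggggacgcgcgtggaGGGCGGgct
The Prkaca window holds the core TGACG at 120 and at 6 bases before the start, and GC boxes at 172 and 25. The Prkacb window holds 1 core, at 102 bases, and 3 GC boxes, at 125, 85 and 9 bases. The windows before the other listed starts of both genes hold neither motif. In all, 17.8% of the 32851 windows of this length in the RefSeq table hold the core and 32.7% hold a GC box. Neither paralog's window holds the full palindrome TGACGTCA. A match describes the letters only.

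Among the regulatory subunits, Prkar2b fell and the other 3 were not called. Prkar2b encodes RII beta, the RII form best known from brain and fat. It read 9.66, 9.67 and 9.58 in VECTOR and 8.92, 8.96 and 8.90 in AC9. The gap between the groups was wide beside the spread within each, with means of 9.64 ± 0.05 and 8.93 ± 0.03 (SD, n = 3). Its change of -0.71 (SE 0.09) was a 1.63-fold lower level (limma adjusted p 0.000730), and it ranked 483 of 19505 genes from the largest fall upward. Its paralog Prkar2a, which encodes the widely expressed RII alpha, read 8.62, 8.49 and 8.65 in VECTOR and 8.73, 9.02 and 8.74 in AC9. All AC9 values of Prkar2a were the higher ones, but the change of 0.25 did not pass the limma test (95% interval -0.0005 to 0.50, adjusted p 0.166).

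The RI genes also lay on opposite sides of 0, and neither passed the limma test. Prkar1a, the widely expressed RI alpha, whose loss causes Carney complex in people, read 10.35, 10.29 and 10.22 in VECTOR and 10.06, 10.01 and 10.07 in AC9. The groups did not overlap, and the change was -0.24 (95% interval -0.44 to -0.04, adjusted p 0.1003). Prkar1b, the RI form best known from neurons, read 6.03, 6.22 and 6.26 in VECTOR and 6.45, 6.65 and 6.39 in AC9. Its VECTOR values lay near the bound from the negative controls, where a change can be understated, and its change was 0.32 (95% interval 0.08 to 0.57, adjusted p 0.0735). Prkar1a was called with a trended robust prior (adjusted p 0.0137) and with dim genes left out (0.0391), and Prkar1b only with dim genes left out (0.0316). Over the 14 other settings run at the same threshold, the adjusted p ran from 0.0137 to 0.232 for Prkar1a and from 0.0316 to 0.223 for Prkar1b.

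For the RII pair, the windows before the most upstream start listed in the promoter table are chr9:108691893-108692142 (+ strand) and chr12:32061278-32061527 (- strand). They are shown as the pair with the widest split in change, with capitals as above. RefSeq's gene model of Prkar2b extends beyond its window, so the window lies within the annotated gene.
Prkar2a: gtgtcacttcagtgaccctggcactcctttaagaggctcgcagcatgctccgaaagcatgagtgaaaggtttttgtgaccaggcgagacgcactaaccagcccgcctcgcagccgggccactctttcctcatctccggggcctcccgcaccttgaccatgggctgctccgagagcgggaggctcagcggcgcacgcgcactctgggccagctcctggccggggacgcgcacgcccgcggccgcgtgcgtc
Prkar2b: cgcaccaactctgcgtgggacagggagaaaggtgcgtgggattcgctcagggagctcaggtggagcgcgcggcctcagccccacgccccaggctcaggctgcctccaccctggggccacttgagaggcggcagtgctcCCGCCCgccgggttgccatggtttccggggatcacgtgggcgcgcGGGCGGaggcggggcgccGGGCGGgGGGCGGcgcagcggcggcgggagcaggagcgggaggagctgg
The Prkar2b window is 75.6% G and C and holds 4 GC boxes, at 112, 67, 49 and 42 bases before the start, and no core TGACG. The window before the other listed start of Prkar2b is 69.6% G and C and holds neither motif. The Prkar2a window is 66.8% G and C and holds neither motif. Of the 24 windows of the 8 members that the table lists, 1 holds the palindrome TGACGTCA, against 1.55% of all windows. The palindrome is the full cAMP response element, and the window belongs to Prkar1a. These 30 bases of Prkar1a, at chr11:109650889-109650918 (+ strand), hold the palindrome in capitals, 49 bases before 1 of the gene's listed starts.
Prkar1a: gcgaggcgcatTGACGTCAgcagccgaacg
The palindrome also contains the core on both strands.

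**Figure D1:**
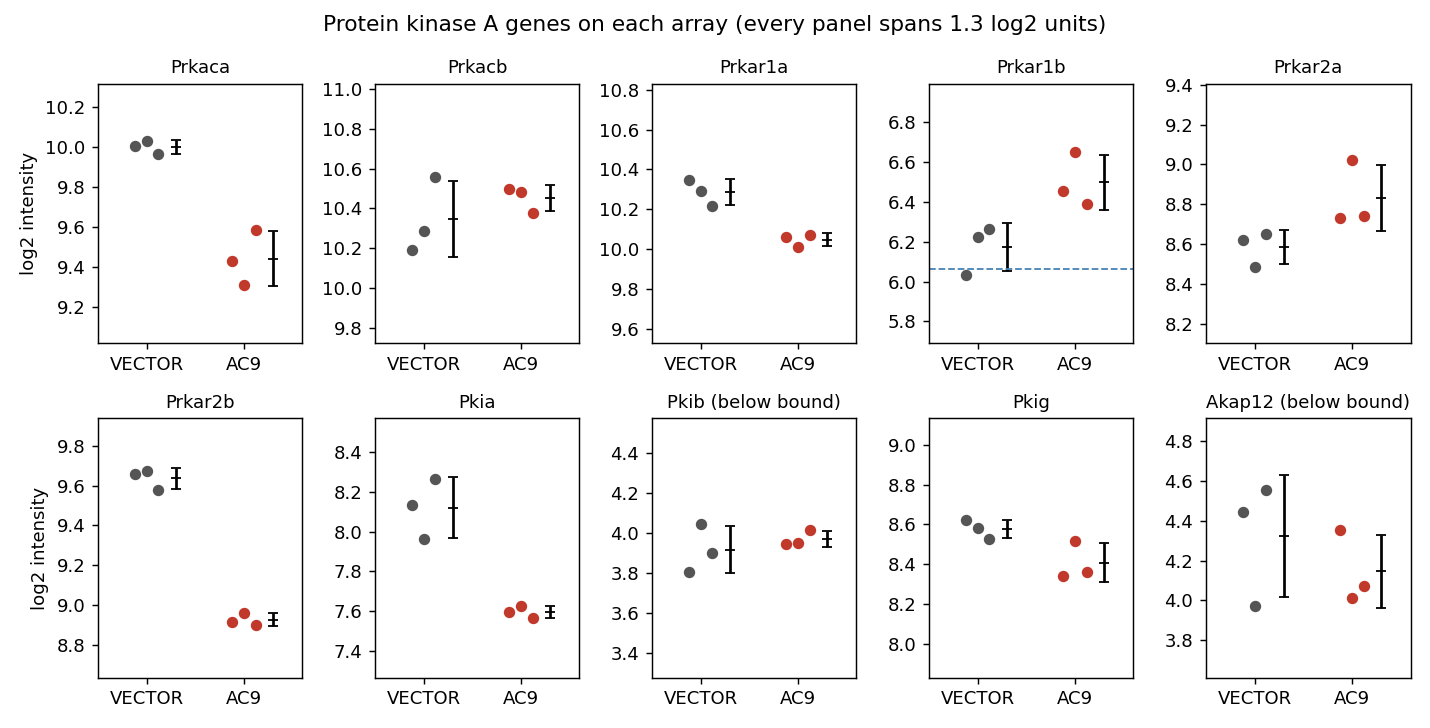
Log2 intensity of the 10 protein kinase A genes on each array, with VECTOR in grey and AC9 in red; the black bars are the mean and SD over 3 arrays, and the dashed line is the bound of 6.06 from the negative controls where it falls in a panel. The called genes Prkaca, Prkar2b and Pkia are lower on every AC9 array, as are Prkar1a and Pkig, which were not called. Pkib and Akap12 lie far under the bound.

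Of the inhibitor genes, Pkia fell. Pkia encodes the inhibitor best known from muscle and brain, and its protein carries a nuclear export signal. It read 8.13, 7.96 and 8.27 in VECTOR and 7.59, 7.63 and 7.57 in AC9. The AC9 values lay close together and all below the VECTOR values, at 7.60 ± 0.03 against 8.12 ± 0.15 (SD, n = 3). Its change was -0.52 (SE 0.10), a 1.44-fold lower level, with a limma adjusted p of 0.00762. Pkig, the widely expressed inhibitor, read 8.62, 8.58 and 8.53 in VECTOR and 8.34, 8.52 and 8.36 in AC9. Its groups were separated only narrowly, at AC9 replicate 2, and the change of -0.17 did not pass the limma test (95% interval -0.38 to 0.04, adjusted p 0.267).

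Pkib and the anchoring protein gene Akap12 lay under the bound in both groups, so the size of a change could not be given. Pkib read 3.81 to 4.04 in VECTOR and 3.94 to 4.02 in AC9. Akap12, also known as gravin, holds protein kinase A and protein kinase C at the cell membrane. It read 4.44, 3.97 and 4.55 in VECTOR and 4.35, 4.01 and 4.07 in AC9. Both genes had overlapping groups, and neither was called (limma adjusted p 0.779 for Pkib and 0.517 for Akap12).

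In all, 3 of 10 members passed an adjusted p of 0.05 in limma, all 3 lower in AC9 and 0 higher, and 5 had an unadjusted p under 0.05, against 30.3% of all genes. Of all genes tested, 17.6% passed the same threshold, with 8.26% higher and 9.29% lower. Among the 10316 genes above the bound in both groups, which include 8 of the members, 27.8% passed and 14.7% were lower. Against these shares, 3 calls among 8 bright genes are a description of single genes and not a result about the group. The groups did not overlap for 7 of the 10 members, 2 higher and 5 lower, against 35.1% of all genes, 17.3% higher and 17.7% lower. All 7 were among the 8 members above the bound, whereas 8646 of all 19505 genes lay under it in both groups. The share without overlap among genes above the bound was not taken, so no excess is read from this count. The median change of the members was -0.17, and that of all genes was 0.02, with genes under the bound counted in both. The median of the members lies between the changes of Pkig and Akap12, so it depends in part on a gene under the bound.

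**Figure D2:**
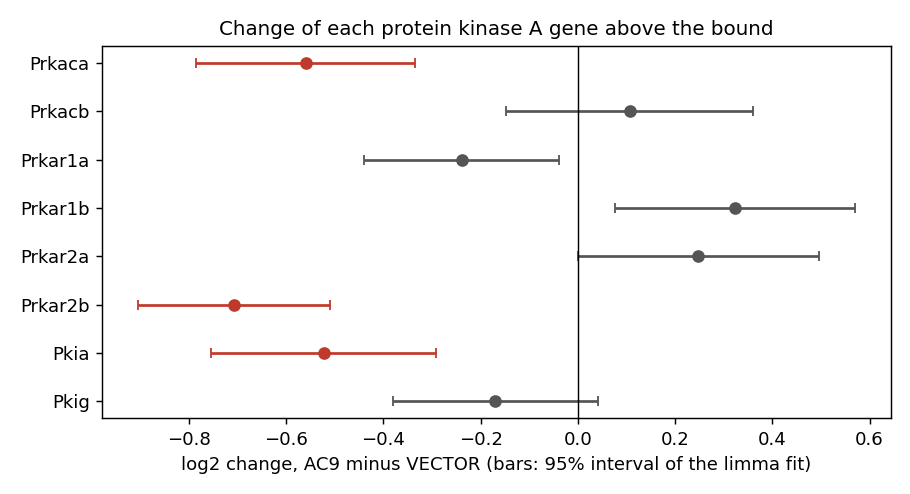
Log2 change (AC9 minus VECTOR) of the 8 protein kinase A genes above the bound, with the 95% interval of the limma fit as bars and genes past the adjusted threshold in red. The intervals of Prkaca (-0.79 to -0.33), Prkar2b (-0.90 to -0.51) and Pkia (-0.75 to -0.29) lie furthest from 0.

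The 3 calls held in each of 14 other settings and at an adjusted p of 0.01. The limma adjusted p ran from 8.23e-06 to 0.0227 for Prkaca, from 2.54e-07 to 0.00515 for Prkar2b and from 0.000684 to 0.0311 for Pkia, the settings that left out each array in turn included. With each array centred on its negative controls, the changes were -0.58 for Prkaca, -0.72 for Prkar2b and -0.54 for Pkia. The medians of those controls were 3.979 to 4.028 in VECTOR and 3.996 to 4.026 in AC9, so the centring could move the changes only slightly. The background probe sets ran the same way as these falls, most strongly at high G and C content, and their part in the falls was not tested.

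Differences between subunits were also taken within each array, which shows unequal change and not a ratio of amounts. Prkar2a minus Prkar2b was -1.04, -1.18 and -0.93 in VECTOR and -0.19, 0.06 and -0.16 in AC9. The difference moved by 0.95 (SE 0.11) toward Prkar2a, the widest of the 4 pairs compared. Prkaca minus Prkacb was -0.19, -0.26 and -0.59 in VECTOR and -1.07, -1.18 and -0.79 in AC9, a move of -0.67 (SE 0.17). Prkar1a minus Prkar1b moved by -0.56 (SE 0.14). Prkar1a minus Prkar2b, which sets an RI against an RII gene, was 0.69, 0.62 and 0.64 in VECTOR and 1.14, 1.05 and 1.17 in AC9, a move of 0.47 (SE 0.04). In each of the 4 pairs the groups did not overlap. For Prkar1a minus Prkar1b and Prkar2a minus Prkar2b, this was fixed by the single genes, which lay apart in opposite directions. The exact p below was fixed for these pairs too and adds nothing to the values of the genes. Of single genes, 35.1% did not overlap, and the share over other gene pairs was not taken. Prkar1a and Prkar2b recur among the 4 pairs, which are therefore not independent. The exact permutation test, two-sided, gave p = 0.10 for each, which is the smallest p that 3 against 3 arrays allow, and 0.10 after Benjamini-Hochberg adjustment over the 4. The design therefore cannot reach 0.05 for these differences.

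**Figure D3:**
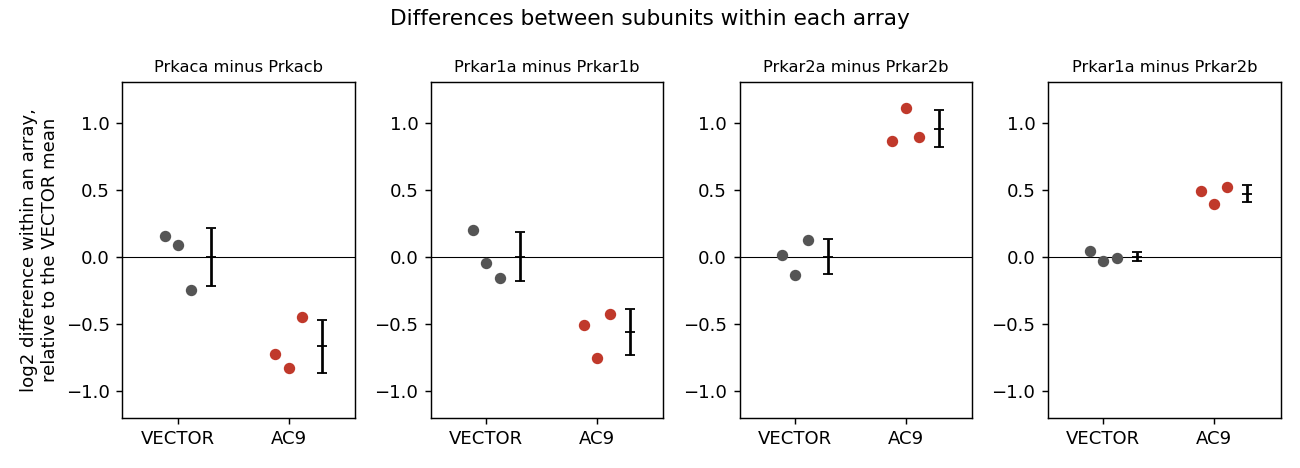
Log2 difference between 2 subunit genes within each array, less the mean difference of the VECTOR arrays, for 4 pairs; VECTOR is grey, AC9 red, and black bars are the mean and SD over 3 arrays. The AC9 arrays lie below the VECTOR arrays in Prkaca minus Prkacb and in Prkar1a minus Prkar1b, and above them in both pairs with Prkar2b.

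Of 32 anchoring protein genes measured besides Akap12, 1 rose and 1 fell (6.25%, against 17.6% of all genes). The rise was that of Pakap by its brighter probe set, and 0 rose with the mean of probe sets. The median change was 0.05, and 13 of the 32 lay under the bound in both groups. Of the other 19, 10.5% were called, against 27.8% of all genes above the bound. Wasf1, an actin regulator also known as WAVE1, read 7.87, 7.77 and 7.89 in VECTOR and 7.24, 6.93 and 7.30 in AC9, a change of -0.69 (limma adjusted p 0.00360). Pakap, the joined Palm2 and Akap2 locus, had 2 probe sets, which the platform annotation ties to different transcripts and which moved in opposite directions. The brighter one read 7.11, 7.20 and 7.36 in VECTOR and 7.75, 7.83 and 7.64 in AC9, a rise of 0.51 (adjusted p 0.00866). The other read 7.34, 6.94 and 7.27 in VECTOR and 6.11, 5.79 and 6.44 in AC9, a change of -1.07 (limma adjusted p 0.00275 over all named probe sets). The mean of both gave a change of -0.28 and no call (adjusted p 0.109), so no direction is given for Pakap as a gene. Over all 14 other settings, the adjusted p of Pakap ran from 0.00156 to 0.109.

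A list of 10 related kinases and regulators held Prkx, Prkg1, Prkg2, Pdpk1, Pja2, Ppp1r1a, Ppp1r1b, Arpp19, Arpp21 and Ensa. Of these, 1 rose and 1 fell (20%, near the 17.6% of all genes), with a median change of -0.02. Ppp1r1b encodes DARPP-32, which inhibits protein phosphatase 1 once protein kinase A has phosphorylated it. It read 7.33, 7.40 and 7.05 in VECTOR and 6.81, 6.73 and 6.60 in AC9, a change of -0.55 (limma adjusted p 0.0113). Prkg2, a kinase activated by cGMP, read 11.42, 11.38 and 11.36 in VECTOR and 11.75, 11.73 and 11.69 in AC9, a rise of 0.33 (adjusted p 0.0278). That call was lost without any 1 of the 6 arrays (limma adjusted p 0.0544 to 0.0958).

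Of 13 other cAMP or cyclic nucleotide sensors measured, 0 passed limma's adjusted threshold, against 17.6% of all genes, and 2 had an unadjusted p under 0.05 (15.4%, against 30.3% of all genes). Under the bound in both groups lay 11 of the 13. The members with the smallest p were Cngb1, a cyclic nucleotide-gated channel subunit, and Hcn4, a pacemaker channel. Cngb1 read 6.03 ± 0.04 in VECTOR, a mean just under the bound, and 6.35 ± 0.25 in AC9 (SD, n = 3, limma adjusted p 0.124). Hcn4 lay under the bound in both groups (limma adjusted p 0.163). Hcn4 was called without VECTOR replicate 2 (adjusted p 0.0208; 0.0208 to 0.374 over all settings).

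Among 27 genes whose proteins are known as protein kinase A substrates, 4 rose and 3 fell (25.9%, against 17.6% of all genes), with a median change of 0.04. Of the 23 above the bound in both groups, 30.4% were called, near the 27.8% of all such genes. Csk encodes the kinase that holds Src family kinases inactive and that protein kinase A activates. It read 9.28, 9.44 and 9.29 in VECTOR and 8.55, 8.36 and 8.24 in AC9, a change of -0.95 (limma adjusted p 0.000492). Pde3b, a phosphodiesterase that breaks down cAMP, read 6.37, 6.03 and 6.76 in VECTOR and 7.34, 7.25 and 7.03 in AC9, a rise of 0.82 (adjusted p 0.0103). The value of Pde3b in VECTOR replicate 2 lay near the bound. Its rise was 0.65 without that array and 1.01 without VECTOR replicate 3. The microtubule regulator Stmn1 changed by -0.47 (adjusted p 0.0104). The cell death regulator Bad changed by -0.48 (adjusted p 0.0173) and lost its call without VECTOR replicate 1 or 3 or AC9 replicate 1 or 3 (adjusted p 0.0519 to 0.0671). The other 3 that rose were Sik2 (0.41), Src (0.33) and Gsk3b (0.29), named after their values were seen. The number that rose was 8 with a trended robust prior and 2 with arrays centred on the negative controls, and it was 2 without each array but VECTOR replicate 3.

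**Figure D4:**
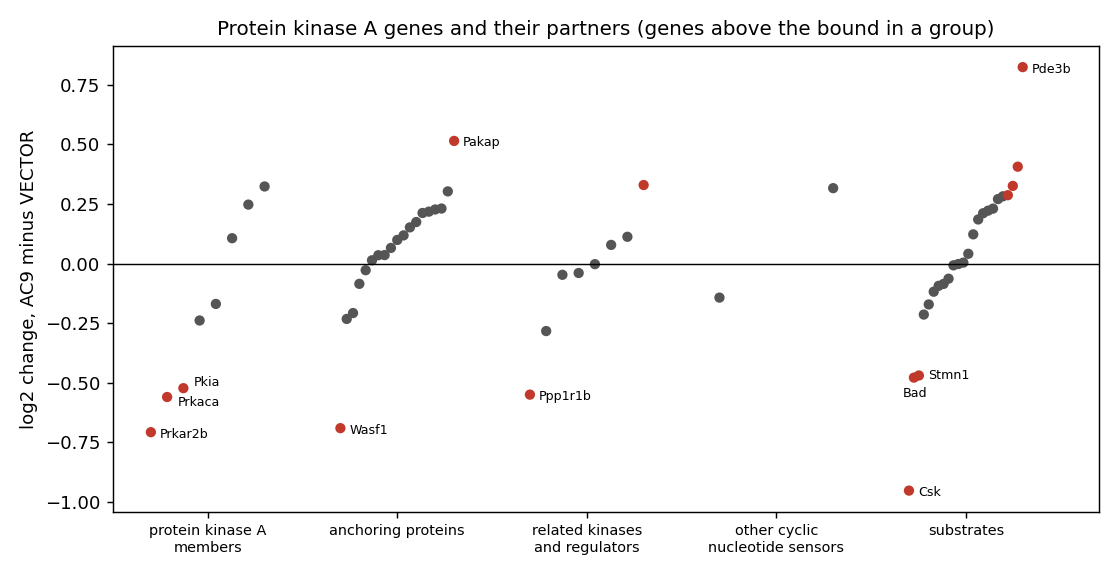
Log2 change (AC9 minus VECTOR) of the protein kinase A genes and of 4 lists of related genes, each ordered by size, leaving out genes under the bound in both groups; red points passed an adjusted p of 0.05 in limma. Csk (-0.95) and Pde3b (0.82) lie furthest from 0, and the anchoring proteins lie mostly near it.

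Over the 6 arrays, the genes whose values, centred on their own mean, lay closest to each called member were found among 18469 named genes by the root-mean-square difference. For Prkaca these were Pcyox1 (0.032 log2 units), Smpd2 (0.036) and Tuft1 (0.041). For Prkar2b they were Tspo (0.026), Fgfrl1 (0.034) and Rab13 (0.040). For Pkia they were Creb3l1 (0.029), Serpinb6b (0.044) and Casd1 (0.048). All 9 had a lower mean in AC9; the measure counts the difference between the groups along with the spread among arrays.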

How the data were processed

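The deposited values were log2 intensities per probe set on Affymetrix Clariom S arrays, which the authors made with RMA (background correction, quantile normalization and probe summary), per the submitters' processing notes. The sources used here name no software, version or genome build for it. All 6 columns matched a sample by name. Of 22206 probe sets that were not controls, 19572 had 1 gene symbol in the platform annotation (0 had several, 2634 none), and all 19572 matched RefSeq by gene number. For the 55 genes with several probe sets, the one with the highest mean was taken.

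AC9 was compared with VECTOR using limma 3.58.1 in R 4.3.3 (lmFit, eBayes with a constant prior, two-sided), with Benjamini-Hochberg adjustment over all 19505 genes and a threshold of 0.05. The fit was tested on simulated data. SE is that of the fit and SD is over 3 arrays; the number of arrays limits the precision. Differences between subunits within arrays were tested by exact permutation. Named genes were the 10 members, Adcy9, from each list up to 4 called members with the largest change (or the 2 with the smallest p), and the 3 genes most like each called member. The members and lists were chosen with earlier results of these data known. Promoter sequences came from RefSeq (GRCm38.p6) by symbol; 8 members matched. Alternatives were a trended robust prior, repeated quantile normalization, centring on the gene median or on negative controls, dropping genes whose mean level was below the 40th percentile, averaging probe sets, array weights, a block for the replicate number, leaving out each array, and an adjusted p of 0.01.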

Additional observations from a re-analysis of the deposited data

Results flagged for a closer look

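Probe sets without a gene name here were not part of the comparison of genes. In a limma fit over all probe sets that were not controls, 149 of these 2634 were higher in AC9 and 126 lower at an adjusted p of 0.05.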

How the results depend on the processing

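Prkaca, Prkar2b and Pkia kept their direction and their call in all settings run. The 4 differences between subunits kept their direction in the 9 settings run for them. Without AC9 replicate 2, the exact permutation p of Prkaca minus Prkacb was 0.2. The number of members called was 3 in the reported fit and 4 with a trended robust prior, where Prkar1a was called too. It was 5 with dim genes left out, where Prkar1a and Prkar1b were called too and fewer genes were tested. Pakap reversed with the mean of its probe sets (-0.28), whose 2 probe sets moved in opposite directions. The number of genes called, 3424, was 4674 with a trended robust prior and 4307 with dim genes left out. It was 1670 at an adjusted p of 0.01, and 2174 to 3025 without 1 array, the lowest without AC9 replicate 1. Without AC9 replicate 1, 968 were higher and 1206 lower, and without AC9 replicate 3, 1061 were higher. Small counts moved too. Over the settings, anchoring proteins that rose numbered 0 to 2 and those that fell 1 to 2. Related kinases and regulators that rose numbered 0 to 2, sensors that rose 0 to 1, and substrates that rose 2 to 8. At an adjusted p of 0.01, 0 related kinases and regulators passed, and 0 substrates rose and 1 fell. No shared effect of the replicate number was seen: deviations from the group means correlated across genes at 0.01, 0.08 and 0.01 for the same number. For different numbers the correlations ran from -0.09 to 0.09. These values cannot show whether the samples were prepared in pairs. With the replicate number as a block, 3062 genes and the same 3 members were called, the substrates that rose numbered 2, and Prkg2 lost its call (adjusted p 0.0564), as it did with quantile normalization repeated (0.0523). Other causes were not tested. Among the members, signal near the negative-control bound limits Prkar1b, and signal under it Pkib and Akap12.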
